A study of Mus musculus with 18 samples.

Results

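Marco, Siglec1, Cd209b, Cd209a and Cd209d encode uptake receptors that are known from the macrophages of the splenic marginal zone and from related antigen-presenting cells. They were taken by symbol from a table of 56876 gene rows, in which each symbol matched 1 row, so the receptors are 5 of 56876 genes. The marginal zone is the rim between the white and the red pulp of the spleen, where blood slows and its particles are taken up. Its outer macrophages carry MARCO, a scavenger receptor that binds bacteria, and SIGN-R1, the C-type lectin encoded by Cd209b, which binds microbial polysaccharides. Its inner, metallophilic macrophages carry sialoadhesin (CD169), which is encoded by Siglec1 and binds sialic acids. Cd209a encodes the mouse lectin named after human DC-SIGN and is known from dendritic cells, and Cd209d encodes SIGN-R3, a lectin of the same family. The libraries were made from whole splenocyte RNA, so no transcript could be assigned to a cell type, and fewer cells of a type cannot be told apart from less RNA per cell.

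The 18 libraries came from splenocytes of female Balb/c mice, taken on day 29 of a study of 4T1, a Balb/c mammary carcinoma line grown in the mammary pad. The 3 groups T_I, T_P and T_GC (tumour-bearing) and the 3 groups N_I, N_P and N_GC (WT, without a tumour) held 3 libraries each. Antibody against G-CSF, antibody against PD-1 or anti-IgG was injected into the peritoneum at 10 mg/kg on days 18, 21 and 24; no label expands the codes I, P and GC, so the groups are named by code and no antibody is assigned to one. The labels are not uniform: the treatment entry reads anti-PD-1 in T libraries of all 3 codes and WT in N libraries, and the cell type entry describes tumour-bearing mice in N libraries too. Ages were not given, and nothing says whether the 3 libraries of a group came from separate mice, so p-values measure only the spread between libraries, which may be technical.

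The start-site regions of 4 of the 5 receptor genes are shown as a description of sequence, Siglec1 having no entry among the promoters used. They are the RefSeq sequences of the build GRCm38.p6, which is not the build of the expression table (GRCm39), and run 300 bases, 250 before the annotated start and 50 from it on. All 4 lie on the minus strand and are written 5′ to 3′ along the gene: Marco at chr1:120504975-120505274, Cd209b at chr8:3926792-3927091, Cd209a at chr8:3748935-3749234 and Cd209d at chr8:3878450-3878749. Capitals mark matches, on either strand, to GAGGAA (the core letters bound by PU.1, a factor of macrophages and B cells) and to GGAA followed, after any 2 bases, by GAAA (a composite of ETS and IRF letters).
Marco: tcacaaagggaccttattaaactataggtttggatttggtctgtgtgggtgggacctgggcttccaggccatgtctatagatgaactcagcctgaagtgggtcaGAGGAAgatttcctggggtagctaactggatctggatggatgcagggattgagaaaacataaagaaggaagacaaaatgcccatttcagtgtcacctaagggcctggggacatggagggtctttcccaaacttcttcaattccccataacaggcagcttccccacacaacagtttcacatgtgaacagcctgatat
Cd209b: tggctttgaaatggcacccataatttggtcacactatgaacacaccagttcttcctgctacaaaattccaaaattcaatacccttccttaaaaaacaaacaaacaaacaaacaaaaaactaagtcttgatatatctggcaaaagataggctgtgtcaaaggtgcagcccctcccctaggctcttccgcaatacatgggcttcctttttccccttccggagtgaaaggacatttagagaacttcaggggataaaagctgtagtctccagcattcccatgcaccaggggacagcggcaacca
Cd209a: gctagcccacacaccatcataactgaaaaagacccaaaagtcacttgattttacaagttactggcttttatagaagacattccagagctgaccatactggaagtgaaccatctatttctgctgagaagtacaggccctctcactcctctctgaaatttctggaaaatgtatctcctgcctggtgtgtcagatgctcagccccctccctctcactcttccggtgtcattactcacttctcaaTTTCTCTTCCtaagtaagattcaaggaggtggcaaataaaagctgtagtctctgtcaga
Cd209d: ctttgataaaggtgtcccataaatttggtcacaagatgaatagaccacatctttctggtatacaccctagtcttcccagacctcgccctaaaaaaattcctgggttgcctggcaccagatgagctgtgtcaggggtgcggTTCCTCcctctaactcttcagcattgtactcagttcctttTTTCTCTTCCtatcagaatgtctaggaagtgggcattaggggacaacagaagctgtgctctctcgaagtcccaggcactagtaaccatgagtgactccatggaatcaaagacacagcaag
GAGGAA was found 146 bases upstream of the Marco start and, on the other strand as TTCCTC, 110 bases upstream of the Cd209d start. Among all 32851 promoters of the same length, 28.3% hold it. The composite was found on the other strand, as TTTCTCTTCC, over the Cd209a start (bases -9 to 1) and 70 bases upstream of the Cd209d start, and 2.72% of promoters hold a match to it. Cd209b held neither, and none of the 4 held GAAA followed, after any 2 bases, by GAAA, the core of the interferon-stimulated response element, which 3.44% of promoters hold. The letters of Cd209a and Cd209d were identical at 75.8% of aligned bases, those of Cd209b and Cd209d at 68.5% and those of Cd209b and Cd209a at 67.3%. Marco, of another family, reached 62.7% with Cd209d, 57.8% with Cd209a and 56.5% with Cd209b. As a share of all 300 bases, gaps included, the lectin pairs had 56.3%, 61.7% and 56.3% in the same order. Marco and Cd209d had 52.7% on that measure. These matches are descriptions of the sequence and no binding was measured. The 3 lectin genes lie on chromosome 8. In the GENCODE M21 transcripts no 31-base word of Marco, Cd209b, Cd209a or Cd209d was shared with another gene, and 1.66% of those of Siglec1 were.

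Expression was given in TPM, a length-corrected share of the library, and each library sums to the same total, so the sequencing depth is unknown and no counting error could be given. Pearson correlations of log2(TPM + 1) between libraries of a group ran between 0.953 and 0.976. The 16 neutrophil genes of a fixed list took 19.7% to 20.5% of all TPM in T_I, against 0.220% to 0.714% in N_I. They took 19.1% to 20.6% in T_P, against 0.302% to 0.490% in N_P, and 3.73% to 6.03% in T_GC, against 0.0558% to 0.121% in N_GC. TPM is a share of a total, and the median log2 fold change of all 16635 genes tested was -0.45 in T_I against N_I, and -0.02 after median-of-ratios scaling. The split of called genes in that comparison was 2893 higher and 8717 lower in TPM, and 5388 higher and 4919 lower after that scaling. Genes of mitochondria, ribosomal proteins, haemoglobins, immunoglobulins and T cell receptors together took 15.5% to 16.7% of all TPM in T_I, against 29.8% to 31.5% in N_I. With TPM recomputed without them the split was 2194 higher and 10120 lower and the median of all genes -0.68, and all 5 receptors were called lower, at -4.05 for Marco, -2.37 for Siglec1, -1.90 for Cd209b, -1.85 for Cd209a and -1.99 for Cd209d. B cell and T cell markers of the spleen were present in all groups, with sums over 12 genes each of 2612 to 11660 TPM and 179.2 to 2038 TPM. The 6 hepatocyte markers summed to 0.35 to 7.29 TPM, with 2 of them at 0 in all 18 libraries.

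The TPM of all 5 receptors was lower in splenocytes of tumour-bearing mice under code I. Marco fell to a mean of 1.96% of the N_I level, Cd209b to 5.51%, Siglec1 to 12.2%, Cd209d to 16.5% and Cd209a to 29.2%. The test was limma on log2(TPM + 1) over all 18 libraries, with Benjamini-Hochberg adjustment over the 16635 genes that reached 1 TPM in at least 3 libraries. In this comparison 5 of 5 receptors were called lower, and 52.4% of all genes tested were. None of the 5 overlapped between the groups, and 54.7% of all genes tested had every T_I library below every N_I library. The receptors' median log2 fold change was -1.66, against the median of -0.45 over all genes.

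Marco, the scavenger receptor, stood at 0.30, 0.23 and 0.38 TPM in T_I libraries 8, 12 and 27, against 13.51, 11.05 and 21.87 TPM in N_I libraries 18, 92 and 96. The lowest N_I library was far above the highest T_I library. The log2 fold change was -3.61 (SE 0.25, limma adjusted p = 1.12e-08), and 7 of the 16635 genes tested had a more negative one. The fold change on this scale understates that of genes at such levels, because 1 TPM is added to each value. Siglec1, the sialic acid-binding receptor, had 0.83, 1.02 and 0.82 TPM in T_I, against 3.48, 7.86 and 10.58 TPM in N_I. Its N_I libraries differed among themselves, library 18 being the low one, without overlapping T_I. Its log2 fold change was -2.03 (SE 0.29, limma adjusted p = 1.77e-05).

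Cd209b, the SIGN-R1 lectin, was the least abundant of the receptors, at 0.09, 0.15 and 0.15 TPM in T_I against 2.29, 1.59 and 3.20 TPM in N_I. It fell by 1.54 on the log2 scale (SE 0.18, limma adjusted p = 2.64e-06), and by 3.38 with a pseudocount of 0.1 in place of 1. Cd209a, the DC-SIGN-like lectin, kept the highest level of the receptors in T_I, at 3.72, 2.88 and 5.06 TPM, against 10.13, 14.37 and 15.47 TPM in N_I. The groups did not overlap, and its log2 fold change was -1.56 (SE 0.20, limma adjusted p = 5.13e-06). Cd209d, the SIGN-R3 lectin, had 0.61, 0.52 and 1.13 TPM in T_I, against 3.30, 5.12 and 5.24 TPM in N_I. Its T_I library 27 was high within its group and still below every N_I library. It fell by 1.66 on the log2 scale (SE 0.28, limma adjusted p = 7.81e-05). After median-of-ratios scaling, which takes the median of all genes to -0.02, the fold changes were -3.33 for Marco, -1.69 for Siglec1, -1.37 for Cd209b, -1.10 for Cd209a and -1.35 for Cd209d, and all 5 calls held.

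**Figure D1:**
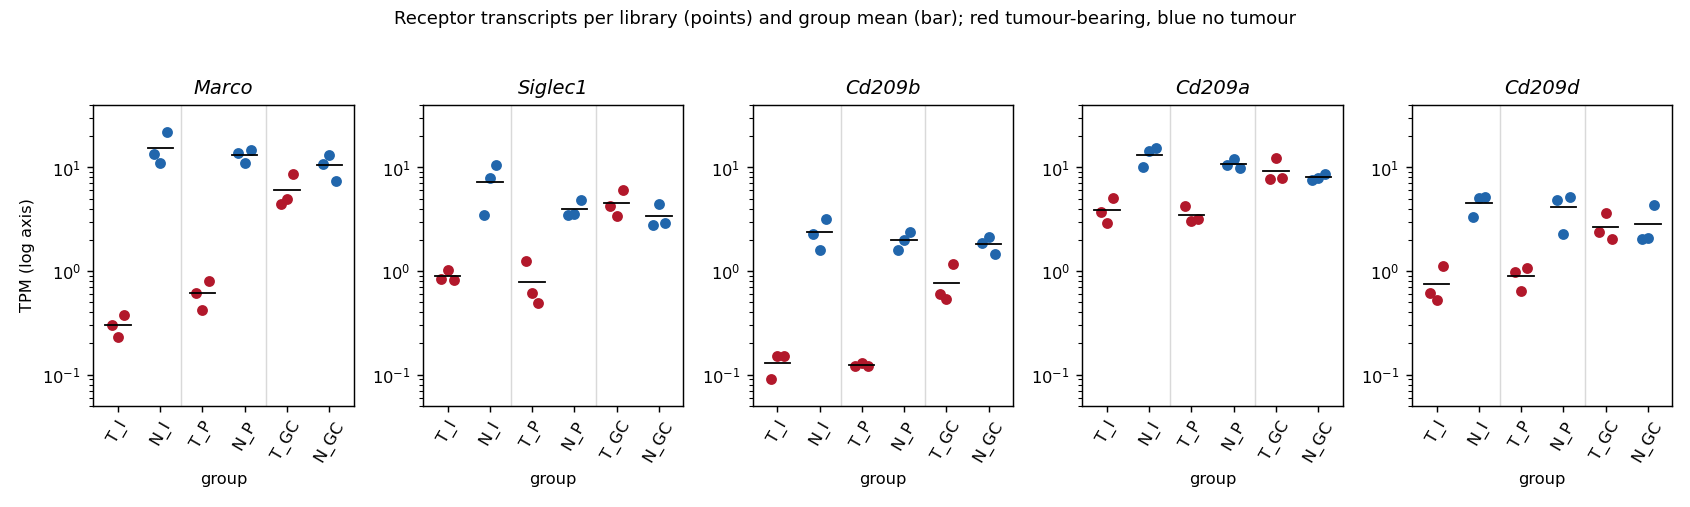
TPM of the 5 receptor genes in each library (points, on a log axis) with the group mean (bar), T groups in red left of the N group of the same code in blue. In T_I and T_P every point lies below the N group of the same code; in T_GC the points overlap those of N_GC for Marco, Siglec1, Cd209a and Cd209d and lie below them for Cd209b.

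Of the relatives of these lectins, Cd209c passed the filter, with means of 0.457 ± 0.121 TPM in T_I and 2.44 ± 1.03 TPM in N_I (SD, n = 3 each). It fell by 1.20 on the log2 scale (limma adjusted p = 0.000390). Cd209e stayed between 0.06 and 0.80 TPM in the 18 libraries and was not tested, and Cd209f and Cd209g were listed at 0 in all of them. Cd209h was not analysed here.

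Under code P all 5 receptors were again lower in splenocytes of tumour-bearing mice, and 50.3% of all genes tested were. Marco had 0.62, 0.42 and 0.81 TPM in T_P libraries 26, 39 and 43, against 13.74, 11.15 and 14.81 TPM in N_P libraries 17, 29 and 38 (log2 fold change -3.14, limma adjusted p = 4.43e-08). Siglec1 had 1.24, 0.61 and 0.49 TPM in T_P, against 3.48, 3.56 and 4.80 TPM in N_P, a log2 fold change of -1.49 (limma adjusted p = 0.000328). These groups did not overlap for either gene. Cd209b was nearly the same in the 3 T_P libraries, at 0.12, 0.13 and 0.12 TPM, against 1.58, 2.0 and 2.36 TPM in N_P (-1.40, limma adjusted p = 7.06e-06). Cd209a had 4.20, 3.01 and 3.20 TPM in T_P, against 10.60, 12.02 and 9.83 TPM in N_P (-1.41, limma adjusted p = 1.37e-05). For Cd209d the T_P libraries had 0.97, 0.64 and 1.06 TPM, against 4.86, 2.28 and 5.22 TPM in N_P, where library 29 was low (-1.39, limma adjusted p = 0.000386). With a pseudocount of 0.1 the log2 fold changes under code P were -3.20 for Cd209b and -2.28 for Siglec1. None of the 5 overlapped between T_P and N_P, and 53.8% of all genes tested were separated in that direction.

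T_P and T_I were not told apart by any receptor: 0 of 5 were called, as were 2 of 16635 genes (0.0120%), while 1010 genes had an unadjusted p under 0.05. Marco was the only receptor whose libraries did not overlap, with a mean of 0.617 ± 0.195 TPM in T_P and 0.303 ± 0.0751 TPM in T_I (SD, n = 3 each). Its log2 fold change was 0.31 with a 95% interval of -0.24 to 0.85 (limma adjusted p = 0.977), and 5.48% of all genes tested had every T_P library above every T_I library. For the other 4 receptors the difference lay between -0.11 and 0.12, with 95% intervals inside -0.73 and 0.71. The tumour difference under code P was also not told apart from that under code I: 0 of 5 interaction terms were called, with values between 0.15 and 0.54 and limma adjusted p between 0.863 and 0.965. Over all genes 0.0180% were called, which is 3 genes, and 1146 had an unadjusted p under 0.05.

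In splenocytes of tumour-bearing mice the TPM of all 5 receptors was higher under code GC than under the other codes. Of the 5, 5 were called higher in T_GC than in T_I, where 48.7% of all genes tested were, and 5 were called higher in T_GC than in T_P, where 49.1% were. These comparisons share the T_GC libraries, and the first shares T_I with the comparison against N_I. Marco had 4.45, 4.97 and 8.67 TPM in T_GC libraries 10, 21 and 37, and its T_GC mean was 19.9 times the T_I mean. The log2 fold change was 2.39 against T_I (SE 0.25, limma adjusted p = 1.96e-06) and 2.08 against T_P (limma adjusted p = 6.64e-06). Relative to T_I, 29 genes rose more than Marco. Siglec1 had 4.29, 3.38 and 6.06 TPM in T_GC, a mean 5.14 times that of T_I (1.53 on the log2 scale, SE 0.29, limma adjusted p = 0.000354). No T_GC library of any of the 5 receptors overlapped T_I or T_P, and 49.5% of all genes tested were separated upward from T_I and 50.3% from T_P.

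The 3 lectins were higher as well. Cd209b had 0.60, 0.54 and 1.17 TPM in T_GC, 5.92 times the T_I mean, with a log2 fold change of 0.63 (SE 0.18, limma adjusted p = 0.00792). Cd209a had 7.67, 12.26 and 7.87 TPM in T_GC, 2.38 times the T_I mean, with a log2 fold change of 1.07 (SE 0.20, limma adjusted p = 0.000283). Cd209d had 2.37, 3.60 and 2.03 TPM in T_GC, 3.54 times the T_I mean, with a log2 fold change of 1.06 (SE 0.28, limma adjusted p = 0.00406). T_GC library 21 was the high one for Cd209a and Cd209d, and library 37 for Marco, Siglec1 and Cd209b. Against T_P the log2 fold changes were 1.64 for Siglec1, 0.64 for Cd209b, 1.18 for Cd209a and 0.94 for Cd209d (limma adjusted p 0.000195, 0.00719, 0.000115 and 0.00841). The median of all genes was 0.38 in T_GC against T_I and -0.0048 after median-of-ratios scaling. With that scaling the receptors' values were 2.18 for Marco, 1.25 for Siglec1, 0.53 for Cd209b, 0.67 for Cd209a and 0.81 for Cd209d, all still called, while Cd209d against T_P was 0.67 and no longer called (limma adjusted p = 0.0541). With a pseudocount of 0.1 the log2 fold changes against T_I were 3.88 for Marco, 1.86 for Cd209b and 1.72 for Cd209d, and those against T_P 1.89 for Cd209b and 1.47 for Cd209d. The split of called genes in T_GC against T_I was 8109 higher and 2115 lower in TPM, and 3830 higher and 4717 lower after the scaling. T_GC against T_P gave 8173 higher and 2111 lower in TPM, and 3846 higher and 4725 lower after it.

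Set against spleens of mice without a tumour under the same code, some receptors were called lower and the others were not told apart from N_GC. Whether the fold changes of the called and uncalled receptors differed from each other under code GC alone was not tested. Cd209b and Marco were called lower in T_GC than in N_GC, 2 of 5, where 18.9% of all genes tested were called lower. Cd209b had 1.87, 2.12 and 1.46 TPM in N_GC libraries 11, 36 and 94, so that its T_GC mean was 42.4% of the N_GC mean (-0.68, SE 0.18, limma adjusted p = 0.0102; -1.19 with a pseudocount of 0.1). It was the only receptor whose groups did not overlap, and 24.6% of all genes tested had every T_GC library below every N_GC library. Marco had 10.88, 13.27 and 7.38 TPM in N_GC, with T_GC library 37 above N_GC library 94. Its T_GC mean was 57.4% of the N_GC mean (-0.72, SE 0.25, limma adjusted p = 0.040). That call was lost without T_GC library 10 or 21 or N_GC library 11 or 36, and under 5 other settings, with adjusted p-values between 0.00903 and 0.157 over 14 alternatives. The Cd209b call was lost when the fit held these 6 libraries alone (limma adjusted p = 0.054).

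Siglec1 had 2.78, 4.43 and 2.93 TPM in N_GC, and its T_GC mean was 135% of that mean. The log2 fold change was 0.34 with a 95% interval of -0.28 to 0.96 (limma adjusted p = 0.395). Cd209a had 7.54, 7.97 and 8.62 TPM in N_GC, which overlapped T_GC, with a log2 fold change of 0.16 (95% interval -0.26 to 0.58, limma adjusted p = 0.576). Cd209d had 2.06, 2.09 and 4.32 TPM in N_GC, where library 94 was high, with a log2 fold change of -0.03 (95% interval -0.62 to 0.56, limma adjusted p = 0.943). These intervals do not exclude changes of that size in either direction. Cd209c likewise had means of 1.44 ± 0.595 TPM in T_GC and 1.41 ± 0.395 TPM in N_GC (SD, n = 3 each; log2 fold change 0.01, limma adjusted p = 0.985).

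**Figure D2:**
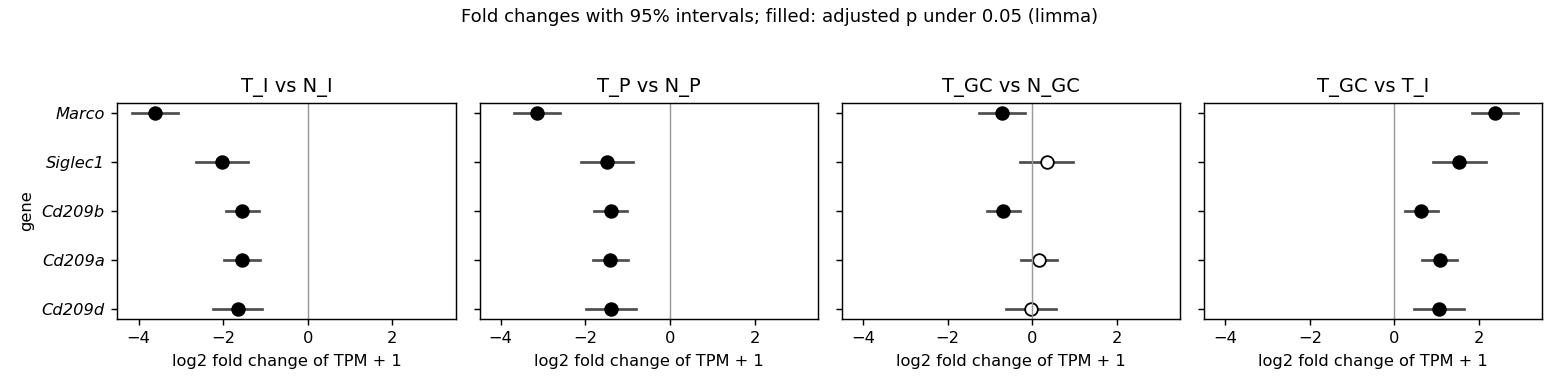
Log2 fold changes of TPM + 1 (x axis) of the 5 receptor genes (y axis) with 95% intervals in 4 comparisons, filled where the limma adjusted p was under 0.05. All 5 are filled and negative in T_I against N_I and T_P against N_P, Marco and Cd209b alone are filled in T_GC against N_GC, and all 5 are filled and positive in T_GC against T_I.

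The difference between codes was tested directly as the interaction of code GC with the tumour, the tumour difference under code GC minus that under code I. It was positive for all 5 receptors, and 33.4% of all genes tested had a called positive interaction. Marco had the largest term of the receptors, at 2.88 (SE 0.36, limma adjusted p = 3.55e-05), followed by Siglec1 at 2.37 (SE 0.41, limma adjusted p = 0.000434). Cd209a had 1.71, Cd209d 1.63 and Cd209b 0.86 (limma adjusted p 0.000272, 0.0044 and 0.0157). The size of these terms depends on the pseudocount at such low levels: with 0.1 in place of 1 they were 4.41 for Marco, 3.19 for Siglec1, 2.45 for Cd209d, 2.18 for Cd209b and 1.93 for Cd209a, so that Cd209b was no longer the smallest, and all 5 were called. The term is the difference of T_GC from T_I minus that of N_GC from N_I, and the second was negative but not called for each receptor. The split of called interactions was 5564 positive and 1153 negative in TPM, and 2286 positive and 3275 negative after median-of-ratios scaling, under which the receptors kept 5 positive calls, at 2.71 for Marco, 2.10 for Siglec1, 0.78 for Cd209b, 1.34 for Cd209a and 1.38 for Cd209d.

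Among splenocytes of mice without a tumour no receptor was called between codes. N_P against N_I gave 0 of 5, with 0.571% of all genes called, and limma adjusted p-values between 0.342 and 0.876; Siglec1 (-0.65) was the 1 receptor with an unadjusted p under 0.05. N_GC against N_I gave 0 of 5, with 2.75% of all genes called, although Siglec1 at -0.84 and Cd209a at -0.64 had unadjusted p-values of 0.0117 and 0.00521 (limma adjusted p = 0.163 and 0.107). Cd209a did not overlap between these groups, and 10.2% of all genes tested had every N_GC library below every N_I library. Without N_I library 18, in which Siglec1 was low, Siglec1 was called lower in N_GC (-1.23, limma adjusted p = 0.00846) and in N_P (-1.04, limma adjusted p = 0.0457), and Cd209a was called lower in N_GC (-0.82, limma adjusted p = 0.0375). N_GC against N_P gave 0 of 5, none at an unadjusted p under 0.05 either, with 1.17% of all genes called, and Cd209a alone did not overlap, where 7.02% of all genes tested had every N_GC library below every N_P library.

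Ordered by mean TPM, each receptor had its highest mean in N_I. For Marco the means ran, low to high, through T_I at 0.303, T_P at 0.617, T_GC at 6.03, N_GC at 10.5, N_P at 13.2 and N_I at 15.5 TPM, and neighbouring groups overlapped except T_I with T_P and T_P with T_GC. For Cd209b they ran through T_P at 0.123, T_I at 0.13, T_GC at 0.77, N_GC at 1.82, N_P at 1.98 and N_I at 2.36 TPM, with T_GC separated from both of its neighbours. Siglec1 had T_P at 0.78, T_I at 0.89, N_GC at 3.38, N_P at 3.95, T_GC at 4.58 and N_I at 7.31 TPM. Cd209a had T_P at 3.47, T_I at 3.89, N_GC at 8.04, T_GC at 9.27, N_P at 10.8 and N_I at 13.3 TPM. Cd209d had T_I at 0.753, T_P at 0.89, T_GC at 2.67, N_GC at 2.82, N_P at 4.12 and N_I at 4.55 TPM. In Siglec1, Cd209a and Cd209d the 1 break between neighbours, where no library overlapped, came after T_I and T_P; the 4 groups above it overlapped with their neighbours.

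The balance between receptors in a library was compared as log2 ratios, which do not depend on what the rest of the library holds when no pseudocount is added. All receptors were above 0 in every library, the lowest at 0.09 TPM. T libraries were set against N libraries of the same code, averaged over codes, with an exact two-sided permutation test (8000 arrangements, smallest possible p 0.00025) adjusted over the 10 pairs. With a pseudocount of 1 TPM, Marco was lower relative to each of the other 4 receptors, with log2 differences of -1.43 against Siglec1, -1.28 against Cd209b, -1.55 against Cd209a and -1.46 against Cd209d (exact adjusted p 0.0025, 0.00438, 0.0025 and 0.0025), and the other 6 pairs were not called. The difference against Cd209b was -2.06 under I, -1.74 under P and -0.04 under GC. The added 1 TPM is above every T_I and T_P value of Marco and of Cd209b, so that ratio depends on it. Without a pseudocount, a setting added after the values had been seen, 7 of 10 pairs were called, Marco to Cd209b not among them.

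In that setting Cd209b was lower in T libraries relative to Siglec1, to Cd209a and to Cd209d, pairs not called with 1 TPM added. These ratios rest on Cd209b at 0.09 to 0.15 TPM in T_I and T_P, levels for which no counting error could be given. The ratio of Cd209b to Cd209a averaged -4.45 in T libraries and -2.39 in N libraries, a difference of -2.06 (exact permutation adjusted p = 0.000833). Siglec1 to Cd209b averaged 2.66 in T libraries and 1.14 in N libraries, higher by 1.52 (exact permutation adjusted p = 0.000833). The difference was present under each code, at 1.26 under I, 1.54 under P and 1.74 under GC. Marco to Siglec1 averaged -0.49 in T libraries and 1.51 in N libraries, a difference of -2.01 (exact permutation adjusted p = 0.000833), with -2.74 under I, -2.02 under P and -1.25 under GC. Marco to Cd209b was not called at -0.49 (exact permutation adjusted p = 0.0947) and changed sign between codes, at -1.48 under I, -0.48 under P and 0.49 under GC. Siglec1 to Cd209d was near 0 in both, at 0.27 in T libraries and 0.30 in N libraries (exact permutation adjusted p = 0.937). Siglec1 to Cd209a was not called either (-0.55, exact permutation adjusted p = 0.09), while Cd209a to Cd209d was higher by 0.52 (exact permutation adjusted p = 0.0361).

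**Figure D3:**
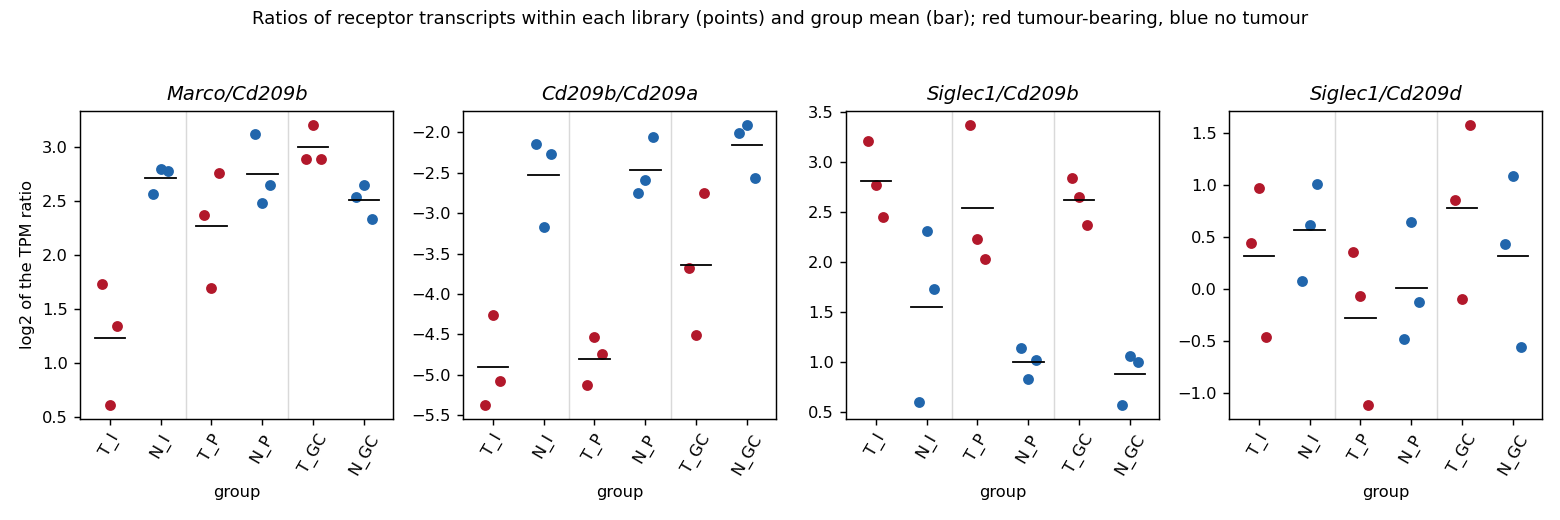
Log2 ratio of 2 receptors' TPM, with no pseudocount, in each library (points) with the group mean (bar), T groups in red left of the N group of the same code in blue. Cd209b/Cd209a is lower and Siglec1/Cd209b higher in T libraries on average, with differences of -2.06 and 1.52, Siglec1/Cd209d has a difference of -0.03, and Marco/Cd209b is lowest in T_I.

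Within groups, the deviations of log2(TPM + 1) from the group means were compared over the 18 libraries for the 10 pairs, as a measure added after the values had been seen. The closest pair was Marco and Cd209b (Pearson's r = 0.85, Spearman's rho = 0.73), with exact permutation p-values of 0.00746 and 0.0141, and 0.0746 and 0.141 after adjustment over 10 pairs. Leaving out the libraries farthest from the median of Marco, N_I 96 and T_GC 37, gave r = 0.72. Cd209a and Cd209d followed among pairs of lectins (r = 0.49, rho = 0.48, exact permutation p = 0.0405 and 0.0536, adjusted 0.203 and 0.268), and r was 0.33 without T_GC 21 and T_I 27. No pair passed the adjustment. The remaining pairs had r between -0.29 and 0.52, with exact permutation adjusted p for r of at least 0.577. All pairs share libraries and the TPM total.

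Genes with the most similar pattern were named by the highest Pearson's r of log2(TPM + 1) over the 18 libraries among 9553 genes, which largely reflects the differences between groups. Their fold changes come from the same libraries as this choice, so they describe the likeness and are no separate evidence. For Marco they were Serpinb6b (0.988), Plekhb2 (0.987), Rtl8c (0.986), Pde4dip (0.985) and Mmd (0.984). Serpinb6b, a serine protease inhibitor, had means of 3.21 ± 0.360 TPM in T_I and 17.9 ± 2.13 TPM in N_I (SD, n = 3 each). For Siglec1 they were Slc45a3 (0.975), the nuclear receptor gene Rxra (0.975), the transglutaminase gene Tgm2 (0.972), the apoptotic cell receptor gene Mertk (0.971) and Sash1 (0.971). Mertk had 17.9 ± 5.19 TPM in T_GC and 12.4 ± 1.11 TPM in N_GC (SD, n = 3 each; log2 fold change 0.46, limma adjusted p = 0.189), where Siglec1 was not called either.

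For Cd209b they were Pla2g2d (0.966), Ubd (0.959), Plekhb2 (0.955), Arhgef11 (0.953) and Tmem134 (0.953). Pla2g2d, a secreted phospholipase, remained lower in T_GC at 4.85 ± 1.30 TPM, against 12.3 ± 3.70 TPM in N_GC (SD, n = 3 each; -1.17, limma adjusted p = 0.00343). Ubd, which encodes a ubiquitin-like protein, was also lower there (-1.34, limma adjusted p = 0.00627). Both genes were picked for their likeness to Cd209b over these libraries, so these calls are not separate from its own. For Cd209a they were Hpgd (0.962), Bst2 (0.960), Erlin2 (0.957), Lgals3bp (0.955) and Adam23 (0.949), and for Cd209d Gngt2 (0.922), Ckb (0.918), Ifi27 (0.918), Gbp10 (0.918) and Ttc38 (0.914). Plekhb2 was named for both Marco and Cd209b. Of the genes named for Cd209a and Cd209d, Lgals3bp was called in T_GC against N_GC, higher by 0.50 (limma adjusted p = 0.0259), and the other 9 were not.

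Other genes of the receptors' surroundings were read from lists, some of which share genes. Of all genes tested, 52.4% were called lower and 17.4% higher in T_I than in N_I, and 18.9% lower and 14.3% higher in T_GC than in N_GC. Of 18 tested genes in the signals that build and hold marginal zone macrophages, 14 were lower and 3 higher in T_I than in N_I (median -1.40, all genes -0.45), and 11 were lower and 3 higher in T_GC than in N_GC (median -0.37, all genes -0.09). After median-of-ratios scaling 13 were lower and 4 higher in T_I than in N_I (median -0.92). In T_GC against N_GC that scaling gave 8 lower and 3 higher (median -0.27). In TPM the chemokine receptor genes Ccr7 and Cxcr5 and the lymphotoxin gene Ltb were lower in both comparisons. Ccr7 is also on the T cell list, where all 12 genes were lower in T_I than in N_I (median -2.76). Ltb had 238.9 ± 26.04 TPM in T_I, against 650.9 ± 24.4 TPM in N_I, and 479.6 ± 43.4 TPM in T_GC, against 775.2 ± 27.3 TPM in N_GC (SD, n = 3 each; -1.45 and -0.69, limma adjusted p under code GC 1.31e-05). The higher ones were Ltbr, the lymphotoxin receptor (1.89 in T_I against N_I, 1.76 in T_GC against N_GC), Tnfrsf1a, a TNF receptor (1.73 and 1.30), and Csf1, the macrophage growth factor (1.37 and 1.02). Of 15 marginal zone B cell genes 9 were lower and 3 higher in T_I than in N_I (median -0.50), a share and a median near those of all genes, and 7 were lower and 6 higher after median-of-ratios scaling. Cr2, the complement receptor CD21, had 21.4 ± 5.61 TPM in T_I and 249.5 ± 18.6 TPM in N_I (SD, n = 3 each; -3.52), and the Notch target Dtx1 (-3.09) and the exit receptor S1pr1 (-2.87) were also lower. The 3 higher ones were Cd9, a tetraspanin (1.76), Itgb2, the beta-2 integrin chain that leukocytes share (1.27), and Plac8 (0.95). Cr2 remained lower in T_GC than in N_GC (-0.90, limma adjusted p = 0.00179). It is also on the B cell list, where all 12 genes were lower in T_I than in N_I (median -2.48).

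Red pulp macrophage genes were lower in T_I than in N_I in 18 of 19 cases and higher in 1 (median -1.99), and 16 were lower and 1 higher after median-of-ratios scaling. Spic, the factor that specifies these macrophages, had 11.7 ± 0.590 TPM in T_I and 84.0 ± 15.5 TPM in N_I (SD, n = 3 each; -2.73). Hpgd, a prostaglandin dehydrogenase, and Axl, a receptor for apoptotic cells, fell by 2.76 and 2.52, and Bach1, a haem-sensing repressor, was higher by 0.77. In T_GC against N_GC 3 were higher and the other 16 were not called (median 0.36), with Spic at 0.15 (limma adjusted p = 0.527). Of 20 dendritic cell genes 14 were lower and 3 higher in T_I than in N_I (median -0.97), and 1 was lower and 5 higher in T_GC than in N_GC (median 0.37). Irf8, Cd8a and Siglech were among the lower ones in T_I (-1.81, -2.75 and -2.39). Irf8 and Siglech were not called under code GC. Cd8a, which is also on the T cell list, was lower in T_GC than in N_GC (-1.49, limma adjusted p = 1.155e-05). The 3 higher ones were Mgl2, a galactose-binding lectin (3.06), Sirpa, the receptor for CD47 (1.04), and the chemokine receptor gene Ccr2 (0.85), and these were also higher in T_GC than in N_GC (1.06, 1.14 and 1.45). After median-of-ratios scaling 12 were lower and 3 higher in T_I than in N_I, and 1 was lower and 7 higher in T_GC than in N_GC.

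Receptors of the same classes included some that were higher in T_I. Of 10 tested scavenger receptors 7 were lower and 2 higher in T_I than in N_I (median -0.62), and 4 were lower and 3 higher after median-of-ratios scaling. Stab2 (-2.35), Cd36 (-2.44) and Mrc1 (-2.15) were lower. In T_GC against N_GC 6 of these 10 receptors were higher and 0 lower (median 0.57), with Stab2 among the higher ones (0.50, limma adjusted p = 0.0144). Msr1, a class A scavenger receptor like Marco, was higher at 10.1 ± 4.42 TPM in T_I, against 3.34 ± 0.686 TPM in N_I (SD, n = 3 each; 1.28), and also higher in T_GC than in N_GC (1.56, limma adjusted p = 0.00272). Of 7 tested sialic acid-binding lectins 3 were higher and 3 lower in T_I than in N_I. Cd33 (3.01), Siglecf (2.54) and Siglece (2.25), known from myeloid cells, were higher. Cd22 (-2.75) and Siglecg (-1.89), known from B cells, and Siglech (-2.39), known from plasmacytoid dendritic cells, were lower. In T_GC against N_GC 3 of these 7 lectins were higher and 1 lower (median 0.31).

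Of 22 type I interferon response genes 16 were lower and 2 higher in T_I than in N_I (median -0.97, all genes -0.45), and 11 were lower and 3 higher after median-of-ratios scaling. In T_GC against N_GC 12 were higher and the other 10 were not called (median 0.76, all genes -0.09). N_GC itself had 5 of these genes lower and 0 higher than N_I, with 17 not called (median -0.86, all genes 0.04). Over all genes tested 2.75% were called in that comparison, 383 lower and 75 higher. Of 19 genes for capturing and recognising bacteria 9 were higher and 6 lower in T_I than in N_I (median -0.01, and 0.51 after median-of-ratios scaling). In T_GC against N_GC 10 were higher and 0 lower (median 0.64). Lbp, the lipopolysaccharide-binding protein, had 111.4 ± 6.78 TPM in T_I and 1.78 ± 1.04 TPM in N_I (SD, n = 3 each; 5.42), and complement C3 was higher by 3.62, while the complement genes C1qb (-1.85) and C1qc (-1.99) were lower.

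**Figure D4:**
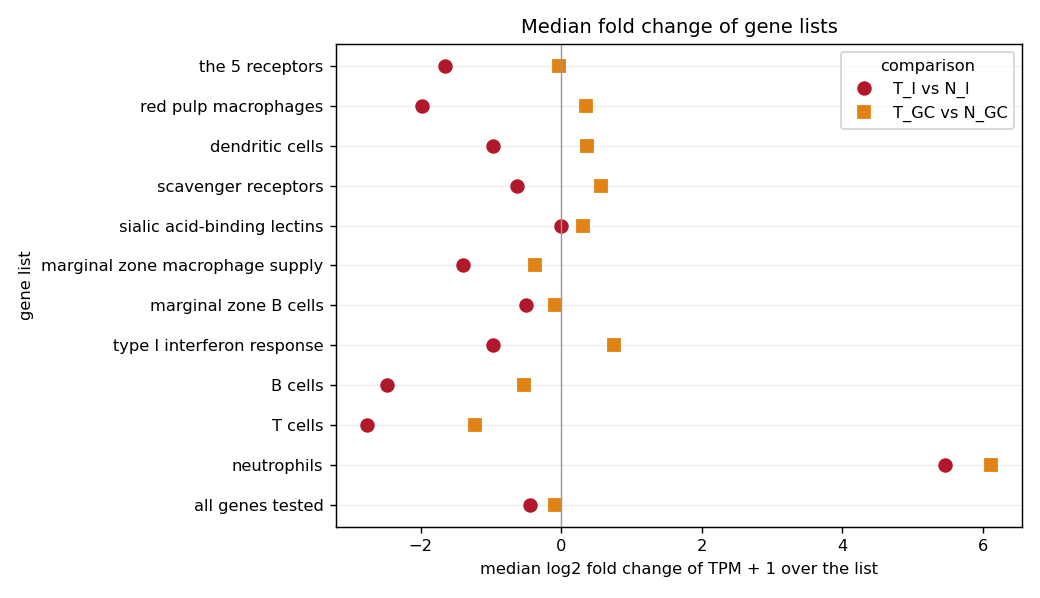
Median log2 fold change of TPM + 1 (x axis) over the tested genes of each list (y axis), T_I against N_I as red circles and T_GC against N_GC as orange squares. The 5 receptors sit at -1.66 in the first and -0.03 in the second, beside medians of -0.45 and -0.09 over all genes tested.

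Markers of abundant cell classes differed between the groups as well, those of B and T cells in the direction of the receptors in T_I and those of neutrophils in the opposite one. The 16 neutrophil genes were all higher in T_I than in N_I (median 5.46) and in T_GC than in N_GC (median 6.12), and all lower in T_GC than in T_I (median -1.87). Over all genes tested, 48.7% were called higher in T_GC than in T_I, with 8109 higher and 2115 lower. All 12 B cell genes were lower in T_I than in N_I (median -2.48) and higher in T_GC than in T_I (median 2.06), with 5 lower in T_GC than in N_GC. All 12 T cell genes were lower in T_I than in N_I (median -2.76), all were higher in T_GC than in T_I (median 1.87), and 11 were lower in T_GC than in N_GC. Of 12 erythroid genes 5 were lower and 1 higher in T_I than in N_I (median -0.0018), against 5 lower and 5 higher after median-of-ratios scaling (median 0.47) and 5 lower and 3 higher without the neutrophil genes. Of 4 tested stroma and vessel genes all 4 were lower in T_I than in N_I. With TPM recomputed without the neutrophil genes, all 5 receptors were called lower in T_I than in N_I, at -3.53 for Marco, -1.88 for Siglec1, -1.51 for Cd209b, -1.30 for Cd209a and -1.52 for Cd209d. The part of the B cell, T cell, erythroid and vessel shifts in the receptor values was not tested.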

How the data were processed

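Splenocyte RNA of 18 mouse libraries was prepared with an RNeasy and a SMARTER mRNA-seq kit and sequenced on an Illumina NovaSeq instrument, per the labels' protocols. The authors deposited 1 table of TPM; fastp, RSEM and GRCm39 are named in the submitters' processing notes without versions, and the aligner is not given in the sources used here. No column of per-sample values was left out. Depth is unknown, since TPM keeps none.

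Groups follow the titles. A gene was kept if 3 or more libraries reached 1 TPM (16635 genes) and tested on log2(TPM + 1) with limma 3.58.1 (R 4.3.3; intensity trend, 6 group means, 12 residual degrees of freedom), two-sided, with Benjamini-Hochberg adjustment over all of them, and called at 0.05. The 11 comparisons were each T group against the N group of its code, pairs of codes within T and N, and 2 interactions. Log2 ratios of receptors were compared by exact permutation of tumour status within codes. The tests were checked on simulated data. Sequences are RefSeq promoters of GRCm38.p6; Siglec1 had no entry.

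The receptors and lists were chosen with earlier results of these data known. Named genes are the 5 receptors, per receptor the 5 genes of highest Pearson's r (mean of at least 5 TPM; no predicted genes, pseudogenes or antigen receptor segments), and per list up to 3 genes a direction by smallest p in T_I against N_I. The results were recomputed after leaving out each library, after median-of-ratios scaling, with TPM recomputed without abundant classes or without neutrophil genes, with a lower pseudocount (0.1), without or with a stricter filter (5 TPM), with only the compared libraries and with robust moderation.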

Additional observations from a re-analysis of the deposited data

Results flagged for a closer look

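The tumour difference of all 5 receptors differed between code GC and code I by a test of the difference itself, the limma interaction term on log2(TPM + 1). The term was 2.88 for Marco, 2.37 for Siglec1, 0.86 for Cd209b, 1.71 for Cd209a and 1.63 for Cd209d. For Marco the fold change was -0.72 in T_GC against N_GC and -3.61 in T_I against N_I. For Siglec1 these values were 0.34 and -2.03, for Cd209b -0.68 and -1.54, for Cd209a 0.16 and -1.56, and for Cd209d -0.03 and -1.66. Over all genes tested 33.4% had a called positive interaction. The neutrophil genes took 3.73% to 6.03% of TPM in T_GC and 19.7% to 20.5% in T_I. Leaving these genes out of the total kept 5 calls. That step removes only the listed genes, so the part of neutrophils in these terms was not tested.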

How the results depend on the processing

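No paired analysis was possible because the groups compared share no replicate numbers. Sequencing depth is unknown, so no counting error could be given for levels such as those of Cd209b, at 0.09 to 0.15 TPM in T_I and T_P. All 5 receptors kept their calls and directions in T_I against N_I, T_P against N_P, T_GC against T_I and the code GC interaction under every alternative run in which they were tested; with the filter of 5 TPM, 4 were tested, without Cd209b.

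The receptors called in T_GC against N_GC (2) numbered 1 with the pseudocount of 0.1, with no filter, with the filter of 5 TPM, after median-of-ratios scaling and without neutrophil genes, 0 with only the libraries compared, and 1 to 2 with a library left out; Marco had limma adjusted p between 0.00903 and 0.157 and Cd209b between 0.00393 and 0.054. Genes called there numbered 3399 with only the libraries compared, against 5532. With only those libraries, 2 genes were called in N_P against N_I, 2 in N_GC against N_I, 7 in N_GC against N_P and 1 in the code P interaction, against 95, 458, 195 and 3. With a library left out these counts ran from 22 to 250, 145 to 686, 69 to 138 and 0 to 11, and receptors called from 0 to 1 in N_P against N_I and 0 to 2 in N_GC against N_I. Genes called in T_P against T_I (2) numbered 1 with the pseudocount of 0.1 and the filter of 5 TPM, 4 with no filter and 1 to 4 with a library left out; the code P interaction gave 1 with the pseudocount of 0.1. Receptor ratios called (4 of 10) numbered 8 with the pseudocount of 0.1 and 7 without one. The cause of these changes was not tested, except that fewer libraries leave fewer degrees of freedom.

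Signs turned only for uncalled values. In T_GC against N_GC, Cd209d was 0.0354 after median-of-ratios scaling, 0.0211 without neutrophil genes and -0.208 to 0.231 with a library left out, and Cd209a was -0.0426 to 0.264. With a library left out, T_P against T_I gave -0.0339 to 0.0048 for Cd209b, -0.268 to 0.0534 for Cd209a and -0.286 to 0.0086 for Siglec1. N_P against N_I gave -0.365 to 0.0975 for Marco, -0.327 to 0.0214 for Cd209b and -0.327 to 0.141 for Cd209d, and N_GC against N_P gave -0.180 to 0.0144 for Cd209b. The code P interaction gave -0.0067 to 0.319 for Cd209a, -0.0295 to 0.319 for Cd209b and -0.0233 to 0.445 for Cd209d, and the ratio of Siglec1 to Cd209d gave -0.143 to 0.0792.

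After median-of-ratios scaling the split of called genes was 5407 higher and 5041 lower in T_P against N_P (3138 and 8367 in TPM), 3004 and 2163 in T_GC against N_GC (2383 and 3149), 93 and 18 in N_P against N_I (52 and 43) and 32 and 192 in N_GC against N_P (71 and 124).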
